A study of Mus musculus with 6 samples.

Results

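Metallothioneins are small, cysteine-rich proteins that bind zinc, copper and cadmium, and the liver is one of the main places where they are made. Their genes are switched on by the transcription factor MTF1, which senses free zinc and binds metal response elements, and also by glucocorticoids and by inflammatory signals. Zinc leaves the cytosol through the SLC30 (ZnT) exporters and enters it through the SLC39 (ZIP) importers. The 6 genes described here are the metallothioneins Mt1 and Mt2, the metal sensor Mtf1, and the transporters Slc30a1, Slc30a10 and Slc39a14, taken from the 18820 genes measured. They were chosen by gene symbol, each is represented by 1 probe set on the array that names that gene alone, and all 6 were found. They were put together with the Mt2 values of these arrays already known, so the values of Mt2 are a description and not an independent test.

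Gene expression was measured on Affymetrix arrays in liver from 4 mice of genotype Pcyt2+/- (replicates 1 to 4) and from 2 wild type animals (replicates 3 and 4), all 2 months old and on the C57BL6 background, with 1 array a mouse. Pcyt2 encodes the enzyme that makes CDP-ethanolamine for phosphatidylethanolamine synthesis, and the sample titles call the mice knock-outs while the genotype field gives Pcyt2+/-, the name used here. Values are log2 expression, and differences are Pcyt2+/- minus wild type on that log2 scale. Neither the sex and feeding state of the mice nor the altered part of Pcyt2 is given in the sources used here.

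The targeted gene itself was lower on each Pcyt2+/- array, between 4.605 and 4.669, against 4.887 and 4.796 on the wild type arrays of replicates 3 and 4. The array values are compressed at the low end, with array medians of 4.40 and only 4.21% of genes above a mean of 5, so a small log2 difference near the median can stand for a larger change in RNA. The 5 measured hepatocyte markers (among them Alb and Ttr) lay between 10.9 and 12.4, near the top of the array's range, while the 33 measured markers of 8 other cell types reached at most 5.25. The 3 Y-linked genes measured and Xist all lay between 4.18 and 4.39, below the array median, so the arrays do not separate the sexes. With 2 wild type arrays, the precision of all values below is limited by the number of mice.

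Mt2 was the only member that stood clear of its wild type values on every Pcyt2+/- array. Its log2 expression was 5.16, 6.07, 5.30 and 5.27 in Pcyt2+/- replicates 1 to 4, against 6.62 and 6.42 in wild type replicates 3 and 4. Replicates 1, 3 and 4 of the Pcyt2+/- mice lay close together, and replicate 2 lay between them and the wild type mice, 0.83 above the mean of its 3 group mates and 0.44 below the wild type mean. The means were 5.45 ± 0.42 (SD, n = 4) in Pcyt2+/- and 6.52 ± 0.14 (SD, n = 2) in wild type, which differ by -1.07 (SE 0.25, 95% interval -1.65 to -0.48). Taken back from the log2 means, a ratio of geometric means, Pcyt2+/- was 0.477 times wild type, without correction for the compression at the low end. Only 4 of the 18820 genes had a larger absolute difference, yet with the adjustment over the whole table limma gave an adjusted p of 0.607, which does not pass. A two-sided exact permutation test over the 15 ways to split the arrays gave 0.0667, the lowest p possible with 4 and 2 arrays. In bulk liver, fewer cells that make Mt2 and less Mt2 RNA per cell cannot be told apart.

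Mt1, the neighbouring and closely related gene, split the arrays in a similar way within a far narrower range. It had 4.506, 4.703, 4.528 and 4.494 in Pcyt2+/- replicates 1 to 4, against 4.685 and 4.661 in wild type replicates 3 and 4. Of the Pcyt2+/- arrays 3 lay below both wild type arrays, but replicate 2 lay above both, so the groups overlapped. It averaged 4.56 ± 0.098 (SD, n = 4) in Pcyt2+/- and 4.67 ± 0.017 (SD, n = 2) in wild type, and the difference of -0.11 (SE 0.057, 95% interval -0.25 to 0.021) had an adjusted p of 0.945 by limma. The Mt1 probe set lay 0.093 to 0.30 above the array medians, in the compressed band of the array. Whether probes of either gene also bind transcripts of the other was not tested.

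**Figure D1:**
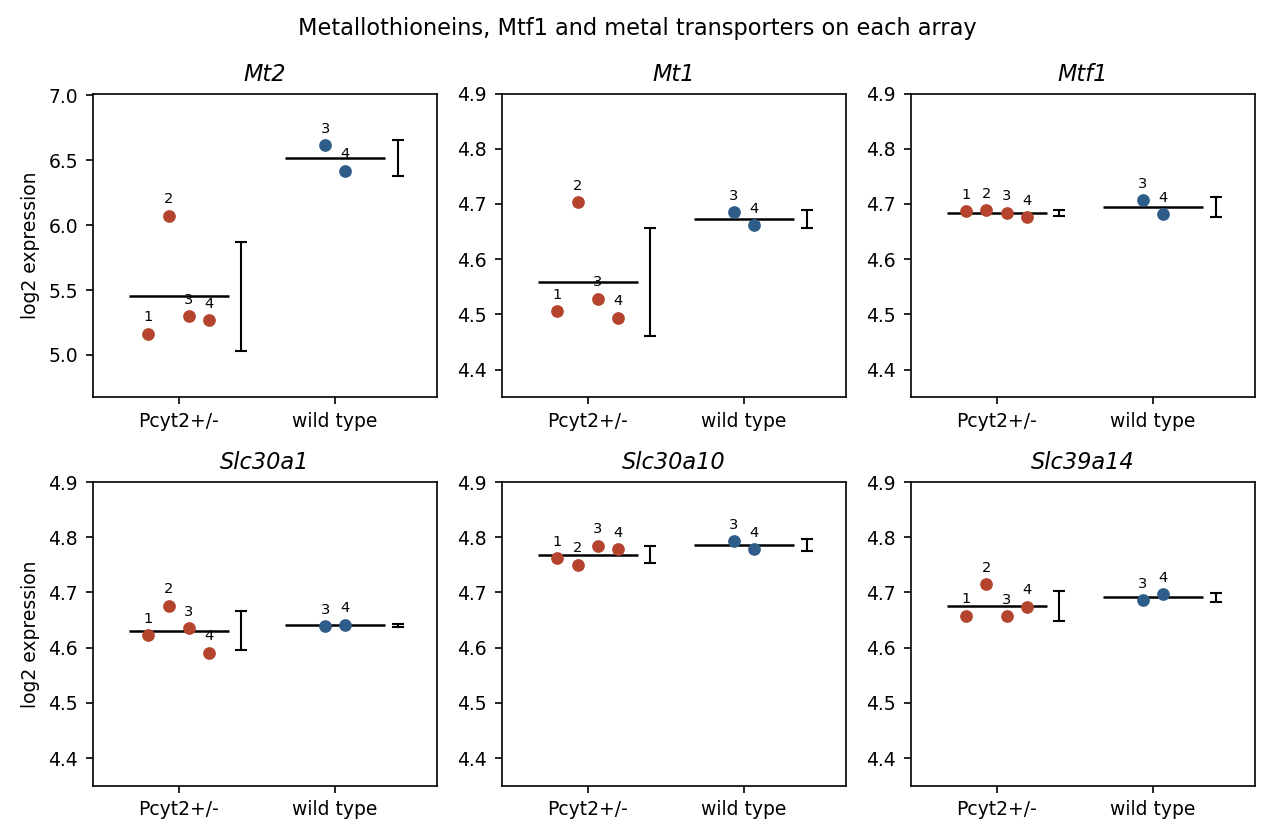
Log2 expression of the 6 genes on each array. Points are single mice, labelled with their replicate number, black lines are group means and bars beside them are ± 1 SD (n = 4 Pcyt2+/-, n = 2 wild type). Mt2 has its own vertical axis, and the other panels share 1 range of values. Pcyt2+/- replicate 2 is the highest Pcyt2+/- array for all genes but Slc30a10, by the widest margins for Mt2 and Mt1. The groups overlap for all genes but Mt2.

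With each array's median signal subtracted on the linear scale, the signal of Mt2 was 14.8, 46.2, 18.2 and 17.4 units in Pcyt2+/- replicates 1 to 4, against 76.9 and 64.5 units in wild type replicates 3 and 4. That of Mt1 was 1.62, 4.93, 1.93 and 1.40 units in the same Pcyt2+/- arrays, against 4.55 and 4.23 units in the wild type ones. On this scale too, replicate 2 exceeded its 3 group mates for both genes, and it lay below both wild type arrays for Mt2 and above both for Mt1. On the log2 scale after this subtraction the difference was -1.71 for Mt2 (SE 0.41, adjusted p = 0.326 by limma) and -1.03 for Mt1 (SE 0.46, adjusted p = 0.728 by limma). The setting that gives Mt1 a value was chosen after seeing the data, as its mean lies under the limit first set for this scale. The difference of Pcyt2 itself was -0.97 here (SE 0.15, adjusted p = 0.0671 by limma), against -0.20 on the deposited scale. For the other 4 genes it was -0.061 for Mtf1, -0.077 for Slc30a1, -0.077 for Slc30a10 and -0.090 for Slc39a14, several times the deposited-scale differences given below and each smaller than its SE, with adjusted p from 0.887 to 0.957. On this scale only genes with a mean above 4.6 were fitted and entered the adjustment, and their median difference was -0.036. For the setting of Mt1 these were the genes with a mean above 4.5, with a median of -0.033.

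Across the 6 arrays Mt1 and Mt2 had a Pearson r of 0.926 and a Spearman rho of 0.771, and for the deviations of each array from its own group mean r was 0.984. These are descriptions over 6 arrays, in which a single array, Pcyt2+/- replicate 2, carries most of the spread within the groups. On that array Mt1 exceeded the mean of the other 3 Pcyt2+/- arrays by 0.19, against 0.83 for Mt2. Ranked by r with Mt2 among the other 18819 genes, Mt1 had rank 72.

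**Figure D2:**
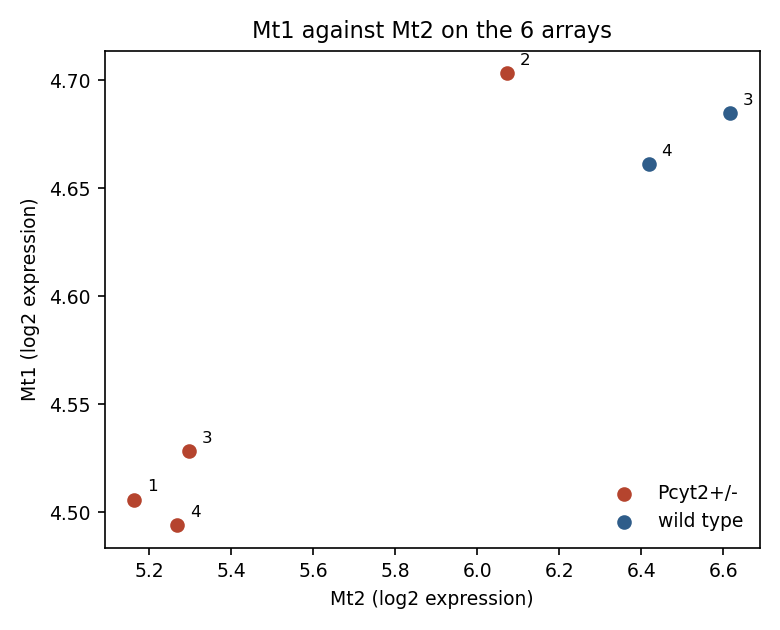
Log2 expression of Mt1 (vertical axis) against Mt2 (horizontal axis) on the 6 arrays, numbered by replicate. Pcyt2+/- replicates 1, 3 and 4 lie together at the lower left, while Pcyt2+/- replicate 2 lies with wild type replicates 3 and 4 at the upper right.

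Whether the Mt2 difference passed the threshold depended on Pcyt2+/- replicate 2. Without Pcyt2+/- replicate 2 it was -1.27 with an SE of 0.066, and limma's adjusted p was 0.0167, where 2 of 18820 genes (0.0106%) passed, Mt2 and Cyp4a31. Without any 1 of the other 5 arrays it ran from -1.17 to -0.97 and did not pass, with adjusted p from 0.643 to 0.985. For Mt1 the difference was -0.16 without Pcyt2+/- replicate 2 (SE 0.015, adjusted p = 0.184 by limma) and between -0.13 and -0.094 with each other array left out in turn. The array was not left out of the values above, since nothing in the labels sets that mouse apart, and a fit without 1 wild type array assumes that the remaining one varies like the Pcyt2+/- arrays.

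**Figure D3:**
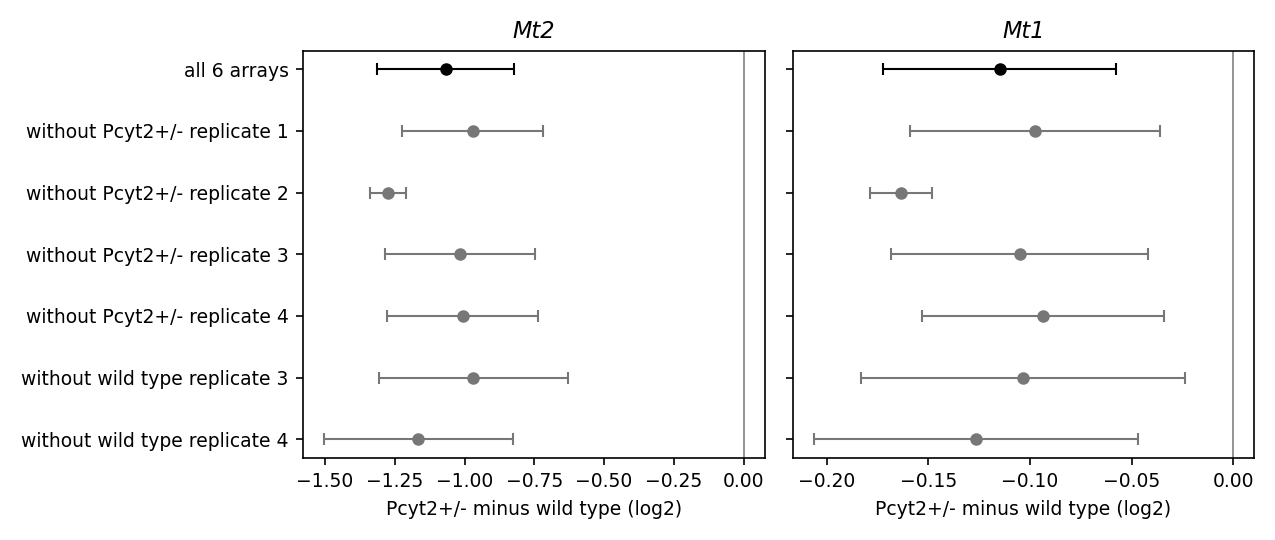
Difference of Pcyt2+/- minus wild type (log2) for Mt2 (left) and Mt1 (right) with all 6 arrays and with each array left out. Points are the differences and bars are ± 1 SE from limma. The difference stays below 0 in all 7 fits for both genes, and its error is smallest without Pcyt2+/- replicate 2.

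Mt1 and Mt2 lie side by side on chromosome 8, where the order of protein-coding genes in RefSeq's GRCm38.p6 table is Bbs2, Mt4, Mt3, Mt2, Mt1 and Nup93. Mt3, a metallothionein best known from brain, had means of 4.76 ± 0.047 (SD, n = 4) in Pcyt2+/- and 4.75 ± 0.0041 (SD, n = 2) in wild type. Mt4, known from stratified epithelium, had 4.30 ± 0.015 (SD, n = 4) in Pcyt2+/- and 4.29 ± 0.015 (SD, n = 2) in wild type, below the array median. The differences of 0.016 for Mt3 and 0.0078 for Mt4 were smaller than the spread between mice, and the ranges overlapped for both genes.

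The sequences around the starts of Mt2 and Mt1 are shown because these neighbours varied together, and that of Slc30a1 because it is a known MTF1 target whose signal overlapped between the groups. Each runs from 250 bases before the annotated start to 50 after it, from RefSeq on GRCm38.p6, plus strand, and capitals mark matches to the core of the metal response element, searched as TGCACNC and TGCGCNC on both strands. The windows are chr8:94172368-94172667 for Mt2, chr8:94178839-94179138 for Mt1 and chr1:191906531-191906830 for Slc30a1.
Mt2: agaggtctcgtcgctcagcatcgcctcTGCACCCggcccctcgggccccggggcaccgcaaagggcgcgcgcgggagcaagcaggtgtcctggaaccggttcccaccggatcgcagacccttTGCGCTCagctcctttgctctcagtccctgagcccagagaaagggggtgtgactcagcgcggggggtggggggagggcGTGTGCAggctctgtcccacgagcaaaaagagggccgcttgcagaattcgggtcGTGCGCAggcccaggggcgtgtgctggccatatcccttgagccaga
Mt1: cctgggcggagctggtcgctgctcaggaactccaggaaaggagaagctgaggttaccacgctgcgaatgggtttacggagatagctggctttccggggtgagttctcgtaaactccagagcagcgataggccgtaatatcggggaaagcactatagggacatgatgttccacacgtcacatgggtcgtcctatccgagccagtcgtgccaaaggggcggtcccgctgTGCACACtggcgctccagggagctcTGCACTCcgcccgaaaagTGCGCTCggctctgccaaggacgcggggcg
Slc30a1: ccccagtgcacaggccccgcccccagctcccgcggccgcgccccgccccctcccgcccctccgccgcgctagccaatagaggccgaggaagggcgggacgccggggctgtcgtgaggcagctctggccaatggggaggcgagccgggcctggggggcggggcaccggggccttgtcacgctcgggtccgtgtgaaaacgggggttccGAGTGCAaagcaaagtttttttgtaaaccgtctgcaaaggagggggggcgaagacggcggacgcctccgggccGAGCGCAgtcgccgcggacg

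Mt2 held 4 matches, at -223, -128, -50 and 5, and Mt1 held 3, at -23, 3 and 21, where positions are those of the first base of the match counted from the annotated start as 1. Of 32851 windows of the same length in the table, 0.517% held at least 4 matches and 1.97% at least 3. Slc30a1 held 2, at -43 and 31, and Slc30a10 held 3, of which those at -233 and -232 overlap on opposite strands, while 7.11% of windows held at least 2. Mt3 and Mt4 held 1 match each, where 25.7% of windows held at least 1, and the window of Mtf1 held none of these letters. The core of the antioxidant response element, TGACNNNGC, had 1 match in Mt2 at -79 and 1 in Slc30a1 at -82, and 12.4% of windows held it. The STAT motif TTCNNNGAA, found in 8.3% of windows, had no match in the 7 windows searched. A match is a string of letters and says nothing on whether a factor binds there. The counts hold for these windows alone, and sequence outside them was not searched. Whether the annotated starts are those used in liver was not tested, so the counts do not compare whole promoters.

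**Figure D4:**
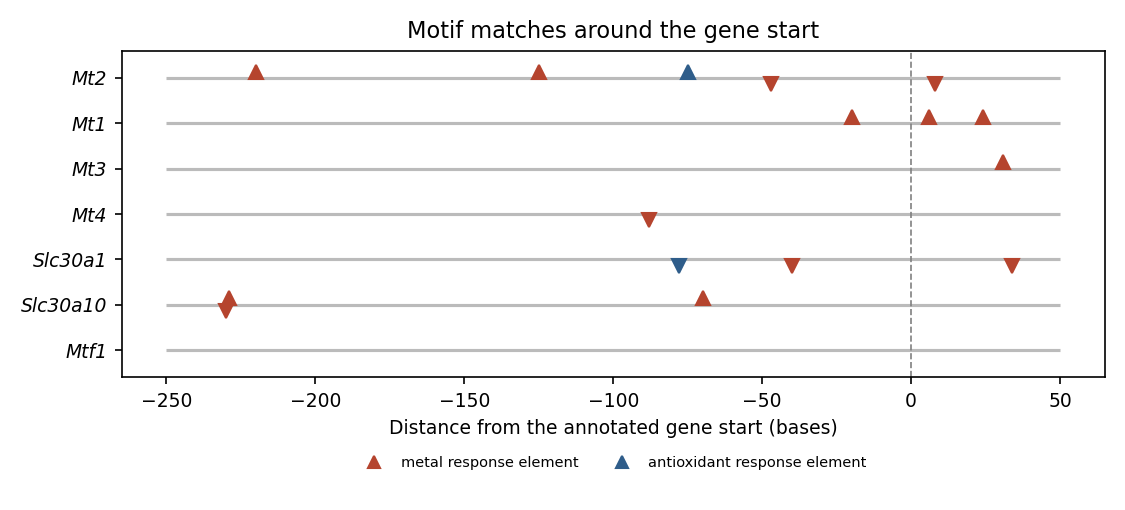
Positions of metal response element cores (red) and antioxidant response element cores (blue) in the window from 250 bases before to 50 bases after the annotated start of 7 genes. Triangles pointing up are matches on the gene's strand and those pointing down on the opposite strand. Within these windows Mt2 holds 4 and Mt1 holds 3 metal response element cores, and Mtf1 holds none.

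Mtf1, the zinc finger factor that senses metal and activates Mt1, Mt2 and Slc30a1, varied little on the deposited log2 scale. Its values were 4.687, 4.688, 4.684 and 4.676 in Pcyt2+/- replicates 1 to 4, against 4.707 and 4.682 in wild type replicates 3 and 4. The difference was -0.011 (SE 0.011, 95% interval -0.037 to 0.016, adjusted p = 0.976 by limma), and it was 0.0020 without wild type replicate 3. The whole range of Mtf1 over the 6 arrays was 0.031, the narrowest of the 6 genes.

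Slc30a1, the plasma membrane exporter that carries zinc out of the cell, had 4.622, 4.676, 4.635 and 4.591 in Pcyt2+/- replicates 1 to 4, against 4.639 and 4.642 in wild type replicates 3 and 4. The Pcyt2+/- arrays spread to both sides of the wild type pair. The means differed by -0.0093 (SE 0.022, 95% interval -0.062 to 0.043, adjusted p = 0.996 by limma), and by 0.0041 without Pcyt2+/- replicate 4.

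Slc30a10, which exports manganese from hepatocytes, had 4.762, 4.750, 4.784 and 4.778 in Pcyt2+/- replicates 1 to 4, against 4.793 and 4.778 in wild type replicates 3 and 4. The difference was -0.017 (SE 0.013, 95% interval -0.048 to 0.014, adjusted p = 0.956 by limma), and the groups overlapped. Slc39a14, an importer of zinc, manganese and iron that inflammation induces in liver, had 4.658, 4.715, 4.657 and 4.674 in Pcyt2+/- replicates 1 to 4, against 4.686 and 4.696 in wild type replicates 3 and 4. Again 3 of the Pcyt2+/- arrays lay below both wild type arrays and replicate 2 above both, the same split as for Mt1, over a range of only 0.058. Its difference was -0.015 (SE 0.018, 95% interval -0.058 to 0.028, adjusted p = 0.981 by limma).

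Of the 6 genes, all 6 had a lower mean in Pcyt2+/-, where 51.9% of all genes did, and their median difference was -0.016, against -0.00073 over all genes. None of the 6 passed limma over all genes, and 0% of all genes did. At an unadjusted p under 0.05, 1 of the 6 was lower, Mt2, and 3.44% of all genes were. Groups that did not overlap with Pcyt2+/- lower were seen for the same 1 of 6 and for 7.17% of all genes. Pcyt2+/- replicate 2 had the highest value of the 4 Pcyt2+/- arrays for 5 of the 6 genes, and 25.9% of all genes had their highest Pcyt2+/- value there. Slc30a10 was the exception, with its lowest value there. Mt2 was chosen with its values known, so these counts of the 6 are a description and not a test against the shares of all genes. For Mtf1 the excess of replicate 2 over the mean of the other 3 was 0.0065, for Slc39a14 0.052 and for Slc30a1 0.060. The deviations from the group means had an r with those of Mt2 of 0.901 for Slc39a14, 0.819 for Slc30a1, 0.407 for Mtf1 and -0.576 for Slc30a10, each over 6 arrays and with the Mt2 spread carried mostly by replicate 2.

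The wider families of zinc transporters had small differences on this log2 scale, which is compressed at their level. All 10 SLC30 exporters and all 14 SLC39 importers were measured, none with a mean above 5, and their differences ran from -0.030 (Slc39a11) to 0.036 (Slc39a1). Both ends of that range depend on single arrays, since with 1 array left out the 24 differences ran from -0.079 (Slc39a13 without wild type replicate 3) to 0.070 (Slc39a1 without wild type replicate 4). That of Slc39a1 was 0.0027 without wild type replicate 3, and 22 of the 24 changed sign or moved by over 1.5 times in at least 1 of the 6 fits. Among the exporters 9 of 10 had a lower mean (51.9% of all genes), with a median of -0.0074. Among the importers 5 of 14 had a lower mean, with a median of 0.0018. With 1 array left out, 5 of the 10 exporters and 7 of the 14 importers changed sign in at least 1 fit. By limma 0 of the 24 passed over all genes. At an unadjusted p under 0.05 there was 1 lower, Slc39a11, and 0 higher, against 3.44% and 1.86% of all genes. Slc39a11 had 4.68 ± 0.0070 (SD, n = 4) in Pcyt2+/- and 4.71 ± 0.011 (SD, n = 2) in wild type. Groups that did not overlap were seen for 3 of the 24, Slc39a11 and Slc30a7 (a Golgi zinc transporter, -0.028) with Pcyt2+/- lower and Slc39a2 (0.027) with Pcyt2+/- higher, against 12.8% of all genes in either direction (7.17% lower, 5.67% higher). The 95% intervals of the 24 reached from -0.092 (Slc39a13) to 0.10 (Slc39a1).

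**Figure D5:**
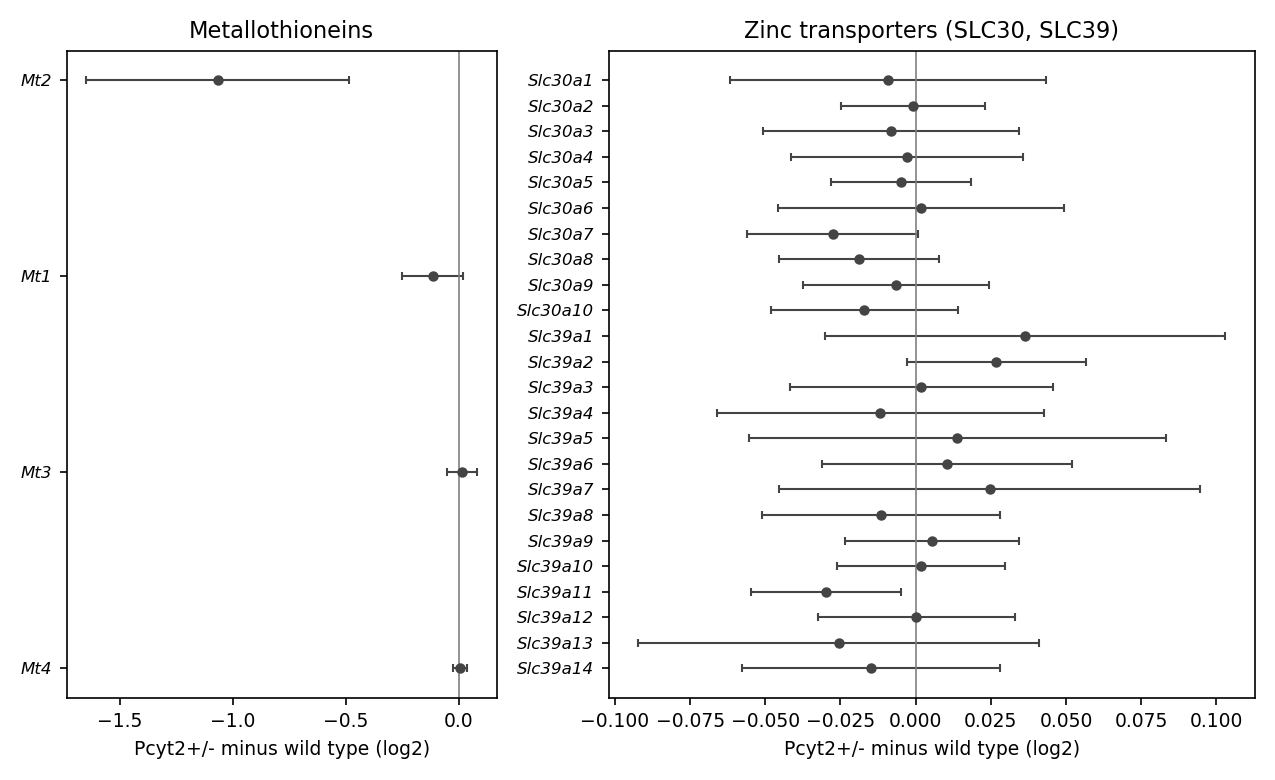
Differences of Pcyt2+/- minus wild type (log2) with 95% intervals from limma for the 4 metallothioneins (left) and the 24 zinc transporters (right, on a finer scale). Mt2 lies at -1.07, and the transporters lie between -0.030 and 0.036.

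Among genes other than the metallothioneins that are known to answer to MTF1, together with Mtf1 itself, 7 were measured. In 4 of the 7 the mean was lower (51.9% of all genes), their median difference was -0.0093, and 0 passed limma with adjustment over the whole table. At an unadjusted p under 0.05 there was 1 higher and 0 lower, against 1.86% and 3.44% of all genes. That gene was Gclc, the catalytic subunit of the enzyme that starts glutathione synthesis and also a target of NRF2, with 5.58 ± 0.036 (SD, n = 4) in Pcyt2+/- and 5.41 ± 0.039 (SD, n = 2) in wild type, a difference of 0.17 with an adjusted p of 0.310 by limma. Its 4 Pcyt2+/- values all lay above both wild type values, as for 5.67% of all genes. Csrp1 had a difference of 0.028, Ndrg1 one of -0.016 (0.00073 without wild type replicate 3) and Slc39a10, an importer that MTF1 represses in mouse liver, one of 0.0017 (-0.0036 without Pcyt2+/- replicate 3).

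Copper handling genes, which share metallothionein as a binding protein, mostly had small differences too. Of 11 measured, 4 had a lower mean (51.9% of all genes) and 0 passed limma with adjustment over the whole table, with a median of 0.0024, and between -0.0085 and 0.0037 with 1 array left out. At an unadjusted p under 0.05 there was 1 lower and 0 higher, against 3.44% and 1.86% of all genes. That gene was Sod1, the copper and zinc superoxide dismutase, with 8.93 ± 0.060 (SD, n = 4) in Pcyt2+/- and 9.08 ± 0.093 (SD, n = 2) in wild type (-0.15, adjusted p = 0.817 by limma, and -0.083 without wild type replicate 4). Slc31a1, the main copper importer, had -0.063 (-0.030 without Pcyt2+/- replicate 3), and Cp, the copper oxidase secreted by liver, had 0.0059. Among 8 manganese handling genes, an unadjusted p under 0.05 was found for 2 that were lower and for 0 that were higher, against the same 3.44% and 1.86%. They were the manganese enzymes Arg1 (-0.79) and Sod2 (-0.079, and -0.046 without wild type replicate 4). With all arrays as deposited 0 of the 8 passed over all genes. Arg1 had -0.95 without wild type replicate 3 and -0.63 without wild type replicate 4. With all arrays it passed among genes of a mean above 5 alone, with each array's median signal subtracted, and with a trended and robust prior. Those settings called 3, 3 and 9 genes. The median of the 8 was -0.013.

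Glucocorticoids induce Mt1 and Mt2 in liver, and the list of the receptor and its targets had a median of -0.032, with 9 of 10 means lower in Pcyt2+/-, against 51.9% of all genes. With 1 array left out the median ran from -0.037 to -0.0093. None passed limma over all genes, and at an unadjusted p under 0.05 there was 1 lower and 0 higher, against 3.44% and 1.86% of all genes. Groups that did not overlap with Pcyt2+/- lower were seen for 3 of the 10, Tat, Sgk1 and Per1, against 7.17% of all genes. Tat, the tyrosine aminotransferase, was the gene under that unadjusted p, with 7.34, 7.25, 7.61 and 7.04 in Pcyt2+/- replicates 1 to 4, against 8.58 and 8.30 in wild type replicates 3 and 4. For Tat, Pcyt2+/- replicate 2 lay 0.077 below the mean of the other 3. Sgk1 (-0.031), Fkbp5 (-0.038) and Per1 (-0.038) lay near the array median and did not pass. Without wild type replicate 3 the differences were -0.019 for Sgk1, -0.018 for Fkbp5 and -0.025 for Per1, and Per1 had -0.025 without Pcyt2+/- replicate 4 as well. The receptor gene Nr3c1 had -0.0085 (-0.0021 without Pcyt2+/- replicate 1). The part of glucocorticoids in the Mt2 difference was not tested.

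The acute phase list, which answers to IL-6 through STAT3, had a median of 0.021 over 15 measured genes, of which 5 had a lower mean (51.9% of all genes). By limma 0 passed with adjustment, and at an unadjusted p under 0.05 there were 0 in either direction, against 3.44% of all genes lower and 1.86% higher. Orm1, an acute phase glycoprotein, differed by 0.18, Fgg, the fibrinogen gamma chain, by 0.15 and Hpx, the heme-binding hemopexin, by 0.11. Without wild type replicate 3 these differences were 0.061 for Orm1, 0.029 for Fgg and 0.040 for Hpx. Others in the list went the other way, and its lowest difference with all arrays was -0.16. With 1 array left out the lowest was that of Hp, -0.29 without wild type replicate 3. Stat3 had one of -0.0049 (0.021 without wild type replicate 4).

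Markers of the liver zones were set beside these values because metallothionein levels can differ along the lobule. Of 6 measured pericentral markers, 2 were lower at an unadjusted p under 0.05, Oat (-0.36) and Slc1a2 (-0.061, and -0.019 without wild type replicate 3), against 3.44% of all genes. Of the 6, 4 had a lower mean (51.9% of all genes) and the median was -0.079. The other 2 had a higher mean, Cyp1a2 (0.20, and 0.056 without wild type replicate 4) and Axin2 (0.0015, and -0.0054 without Pcyt2+/- replicate 1). The summed log2 values of the 6 were 39.1 to 40.2 in Pcyt2+/- and 39.6 to 40.3 in wild type. Of 3 measured periportal markers, 2 had a lower mean, against the same 51.9%, and the median was -0.14. Pck1, the gluconeogenic enzyme, had 6.97, 7.48, 8.22 and 7.84 in Pcyt2+/- replicates 1 to 4, against 8.29 and 8.40 in wild type replicates 3 and 4. Its difference of -0.72 had an adjusted p of 0.936 by limma, and its groups did not overlap, as for 7.17% of all genes with Pcyt2+/- lower. Hal, the histidine-degrading enzyme, differed by -0.14 with overlapping groups (-0.23 without Pcyt2+/- replicate 1). Cyp2f2 had a difference of 0.21 and an unadjusted p under 0.05, as had 1.86% of all genes in that direction, with overlapping groups and an adjusted p of 0.886 by limma. The sums of the 3 were 23.0 to 23.8 in Pcyt2+/- and 23.9 to 24.1 in wild type. The part of the zones in the Mt2 difference was not tested. For the 33 markers of other cell types limma gave 0 with an unadjusted p under 0.05 in either direction and 0 when adjusted, with sums of 147.3 to 148.2 in Pcyt2+/- and 147.6 to 147.7 in wild type.

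Among 748 genes with a mean above 5 (predicted genes and small RNAs left out), the 5 whose values were most like those of Mt2 over the 6 arrays were Pank1, a pantothenate kinase of coenzyme A synthesis (r = 0.966), Cyp4a31, a fatty acid omega-hydroxylase (0.952), Rps18, a ribosomal protein (0.933), Cyp4a14, of the same family as Cyp4a31 (0.896), and Mettl7b (0.888). These genes were picked for their likeness to Mt2 on the same 6 arrays, so what follows describes that choice and is no separate evidence on replicate 2. The r of deviations from the group means, where replicate 2 carries most of the spread of Mt2, was 0.963 for Cyp4a31, 0.865 for Pank1, 0.726 for Rps18, 0.581 for Mettl7b and 0.521 for Cyp4a14. Cyp4a31 had 8.98, 9.41, 9.08 and 9.04 in Pcyt2+/- replicates 1 to 4, against 10.26 and 10.29 in wild type replicates 3 and 4. Replicate 2 was the highest of the Pcyt2+/- arrays and still below both wild type arrays. Pank1 had 5.446, 5.524, 5.449 and 5.440 in Pcyt2+/-, against 5.575 and 5.606 in wild type, again with replicate 2 the highest of the Pcyt2+/- arrays.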

How the data were processed

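The deposited file holds log2 expression values for 28996 probe sets on 6 arrays, which the authors made with RMA per the submitters' processing notes. Version and genome build are not given in the sources used here. By the platform annotation 21218 probe sets have 1 gene symbol, 1881 have several and 5897 are unnamed here. RefSeq's GRCm38.p6 gene table matched 21185 by gene identifier and changed 0 symbols. The row with the highest mean stood for a gene with several rows (1386 of 18820 genes). Pcyt2+/- was compared with wild type in limma 3.58.1 (R 4.3.3; lmFit, eBayes, no covariates, two-sided), adjusted over 18820 genes by Benjamini-Hochberg at 0.05. The other steps used Python 3.11.15, pandas 2.3.3 and numpy 2.4.6. The steps were tested on simulated data of 18820 genes, where changes of 1 and 2 on the log2 scale in bright genes were recovered in 91.6% and 98.0% of cases. There, many bright genes were changed at once with independent noise, which eases the adjustment over all genes. The shares are no measure of how readily a single gene such as Mt2 would pass on the real arrays.

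The members, the gene lists and the rule for naming genes were chosen with earlier results of these data known. The rule took the members, all metallothioneins and SLC30 and SLC39 genes, up to 4 genes with the smallest unadjusted p in each other list, Nr3c1 and Stat3, and the 5 genes most like each member with a mean above 5, which was Mt2 alone. Predicted genes and small RNAs were passed over. Genes named outside this rule were chosen after their values were seen: the gene named with Mt2 as passing without an array, Cp, Hp, Slc39a10 among MTF1 genes, the zone markers, Alb and Ttr. Titles name separate mice. Saa1, Commd1 and other list genes without a row of their own were not analysed here.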

Additional observations from a re-analysis of the deposited data

Results flagged for a closer look

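The genes below each had 1 of the 4 Pcyt2+/- arrays apart from the other 3 by Dixon's criterion, which chance alone meets in about 1 of 20 groups and which 5.72% of all 18820 genes met. Mt2 and Mt1 were chosen with the Mt2 values known and Pank1 for its likeness to Mt2, so the number of genes is not read against that share. Mt2 was highest in Pcyt2+/- replicate 2 at 6.073, above 5.16 to 5.30 in the other 3. Mt1 was highest in the same mouse at 4.703, above 4.494 to 4.528. Pank1 was highest there too at 5.524, above 5.440 to 5.449. Slc30a3 was lowest in that mouse at 4.474, below 4.512 to 4.515. In Pcyt2+/- replicate 4, Per1 was lowest at 4.307, below 4.352 to 4.360, and Slc39a4 was highest at 4.576, above the other 3, which reached at most 4.512.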

How the results depend on the processing

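Limma called 0 of 18820 genes with all arrays as deposited (648 lower and 350 higher before adjustment, at p under 0.05). It called 3 with genes of a mean above 5 alone and 9 with a trended and robust prior. With each array's median signal subtracted it called 3 over genes with a mean above 4.6 and 0 over genes with a mean above 4.5. With 1 Pcyt2+/- array left out it called 0 to 2. With 1 array left out, the differences ran from -1.27 to -0.97 for Mt2, from -0.16 to -0.094 for Mt1, from -0.023 to 0.0020 for Mtf1, from -0.024 to 0.0041 for Slc30a1, from -0.024 to -0.0098 for Slc30a10, from -0.028 to -0.0086 for Slc39a14 and from -0.24 to -0.15 for Pcyt2. With each array's median signal subtracted they were larger for all 7 genes, between -0.061 (Mtf1) and -1.71 (Mt2), with -0.97 for Pcyt2. Mt2 passed in 2 of its 18 alternatives, without Pcyt2+/- replicate 2 (adjusted p = 0.0167 by limma) and without it on the scale with the median signal subtracted (-2.08, adjusted p = 0.0248 by limma), a setting chosen after seeing the data, and over the 18 its adjusted p ran from 0.0167 to 0.985. The cause was not tested. With the replicate number as a replicate block, which uses only replicates 3 and 4 of each group, 2 genes were called, neither of them a member, Mt2 had -1.23 (adjusted p = 0.170 by limma) and Mt1 -0.16 (adjusted p = 0.301 by limma). Nothing in the labels used here ties same-numbered arrays together beyond the number. Their deviations from the group means correlated at 0.147 and 0.0725. The crossed pairs gave -0.147 and -0.0725, mirror images that follow from having 2 wild type arrays. Whether same-numbered arrays share a batch was not tested. Of 131 combinations of result and alternative, 118 kept direction and side of the threshold.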

Other observations

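A further probe set is annotated to Slc30a1 together with 1700034H15Rik and was left out of the values above for that reason. Its log2 values were 4.476, 4.468, 4.532 and 4.486 in Pcyt2+/- replicates 1 to 4, against 4.489 and 4.454 in wild type replicates 3 and 4, a difference of 0.019 with overlapping groups.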
